A study of Mus musculus with 16 samples.

Results

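The response of wild-type (WT) mouse aortic smooth muscle cells to DIAM, a medium meant to make cells store lipid, was measured by comparing 4 libraries from cells in that medium with 4 from cells in standard Dulbecco's modified Eagle medium (DMEM). These are the 8 WT libraries of a series of 16, and they were taken by their column labels, so no measured value chose them. The cells were primary cultures released with collagenase from the aortas of C57BL/6J mice. The WT mice were littermates of mice in which Cre recombinase, driven by the erythropoietin receptor gene, removes floxed Arg1 from the red blood cell lineage. The sources used here do not give whether the WT mice carried floxed alleles or the Cre transgene. Control cultures stayed in DMEM with 10% fetal bovine serum, penicillin and streptomycin. DIAM cultures were moved, before they were fully confluent, to DMEM with dexamethasone at 0.1 µM, insulin at 1 µM and L-ascorbic acid at 50 µg/mL for 10 days. They do not say if DIAM contained serum, and the effects of its components, of any change in serum and of the days in culture cannot be told apart. The labels call the libraries biological replicates without saying that each came from its own animal, so the p-values below measure the spread between libraries. That spread was estimated over all 16 libraries of the series, including those of cells from the Arg1 knockout mice, called knockout cells below. Whether these smooth muscle cells had lost Arg1 was not tested. Arg1 was too low to be tested, with 13 estimated counts in all in WT DMEM and 15 in WT DIAM.

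Dexamethasone is a synthetic glucocorticoid. It binds the glucocorticoid receptor, a transcription factor that enters the nucleus and binds palindromic DNA elements near its target genes. Insulin signals through its receptor, the IRS adaptors, PI3 kinase and AKT, promotes glucose uptake and fat synthesis and keeps the FoxO factors out of the nucleus. Ascorbic acid is a cofactor of the prolyl and lysyl hydroxylases that modify new collagen chains. Dexamethasone and insulin are also common parts of media that turn mesenchymal cells into fat cells. Aortic smooth muscle cells in culture lose part of their contractile gene programme and make much matrix, and in atherosclerotic plaques they can take up lipid.

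Each library held between 37354871 and 47626242 estimated counts. Levels below are counts scaled to a common library total (counts per 1000000, CPM) after trimmed-mean scaling, and 4 values in a row are libraries 1 to 4 of a medium. The unstranded kit cannot tell a gene from an antisense or overlapping neighbour. In the 8 libraries the first principal component took 84.9% of the variance and separated the media, and the second took 5.53%. On the second component DIAM library 2 lay at 24.06, against 2.88, -13.96 and -11.96 for the other DIAM libraries. Correlations of log levels were 0.991 to 0.9942 within DMEM, 0.9871 to 0.9952 within DIAM and 0.9256 to 0.9341 between the media. Xist, the RNA of the inactive X chromosome of female cells, stood at 135, 187, 109 and 204 CPM in DMEM and 132, 153, 104 and 132 CPM in DIAM, which goes against the label male in all 8 libraries. Xist was the only 1 of the 6 listed sex-linked genes that the deposited data held. The listed Y-linked genes were absent from them, so their levels could not be read. The 10 smooth muscle markers were all tested and summed to 3090 to 4010 CPM in DMEM and 1170 to 1900 CPM in DIAM. Acta2 alone took 1958 CPM in DMEM and 771 CPM in DIAM on average. By the test given below 1 of the 10 rose and 4 fell, 50.0% against 55.1% of all genes tested. Myh11, the smooth muscle myosin heavy chain, was measured in every library at 93.8, 112, 126 and 102 CPM in DMEM and 98.8, 51.2, 129 and 126 CPM in DIAM.

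The medium changed the level of 7839 of 14217 genes tested, 55.1%, by edgeR's quasi-likelihood test at an adjusted p under 0.05. Of all genes tested, 27.6% rose (3929) and 27.5% fell (3910), and the median log2 fold change was -0.01. Counts of list members below are to be read against these shares. The 4 DIAM and 4 DMEM libraries did not overlap for 6961 genes, 49.0%. Large rises outnumbered large falls. At a fold of 2 or more, 1292 genes rose and 848 fell, at 8 or more 336 rose and 80 fell, and at 64 or more 39 rose and 3 fell. Genes under 1 CPM on average in DMEM and at 5 CPM or more in DIAM numbered 94, against 21 for the opposite course. The genes that rose took 24.2 ± 0.37% of the tested counts in DMEM and 41.8 ± 0.9% in DIAM (mean ± SD, n = 4), and those that fell 42.8 ± 0.6% and 26.1 ± 0.39%. The 336 genes up at least 8-fold moved from 0.301 ± 0.015% to 5.17 ± 0.21%. These shares describe genes chosen by the same contrast and are no further test. In bulk samples fewer cells of a type and less RNA per cell cannot be told apart.

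**Figure D1:**
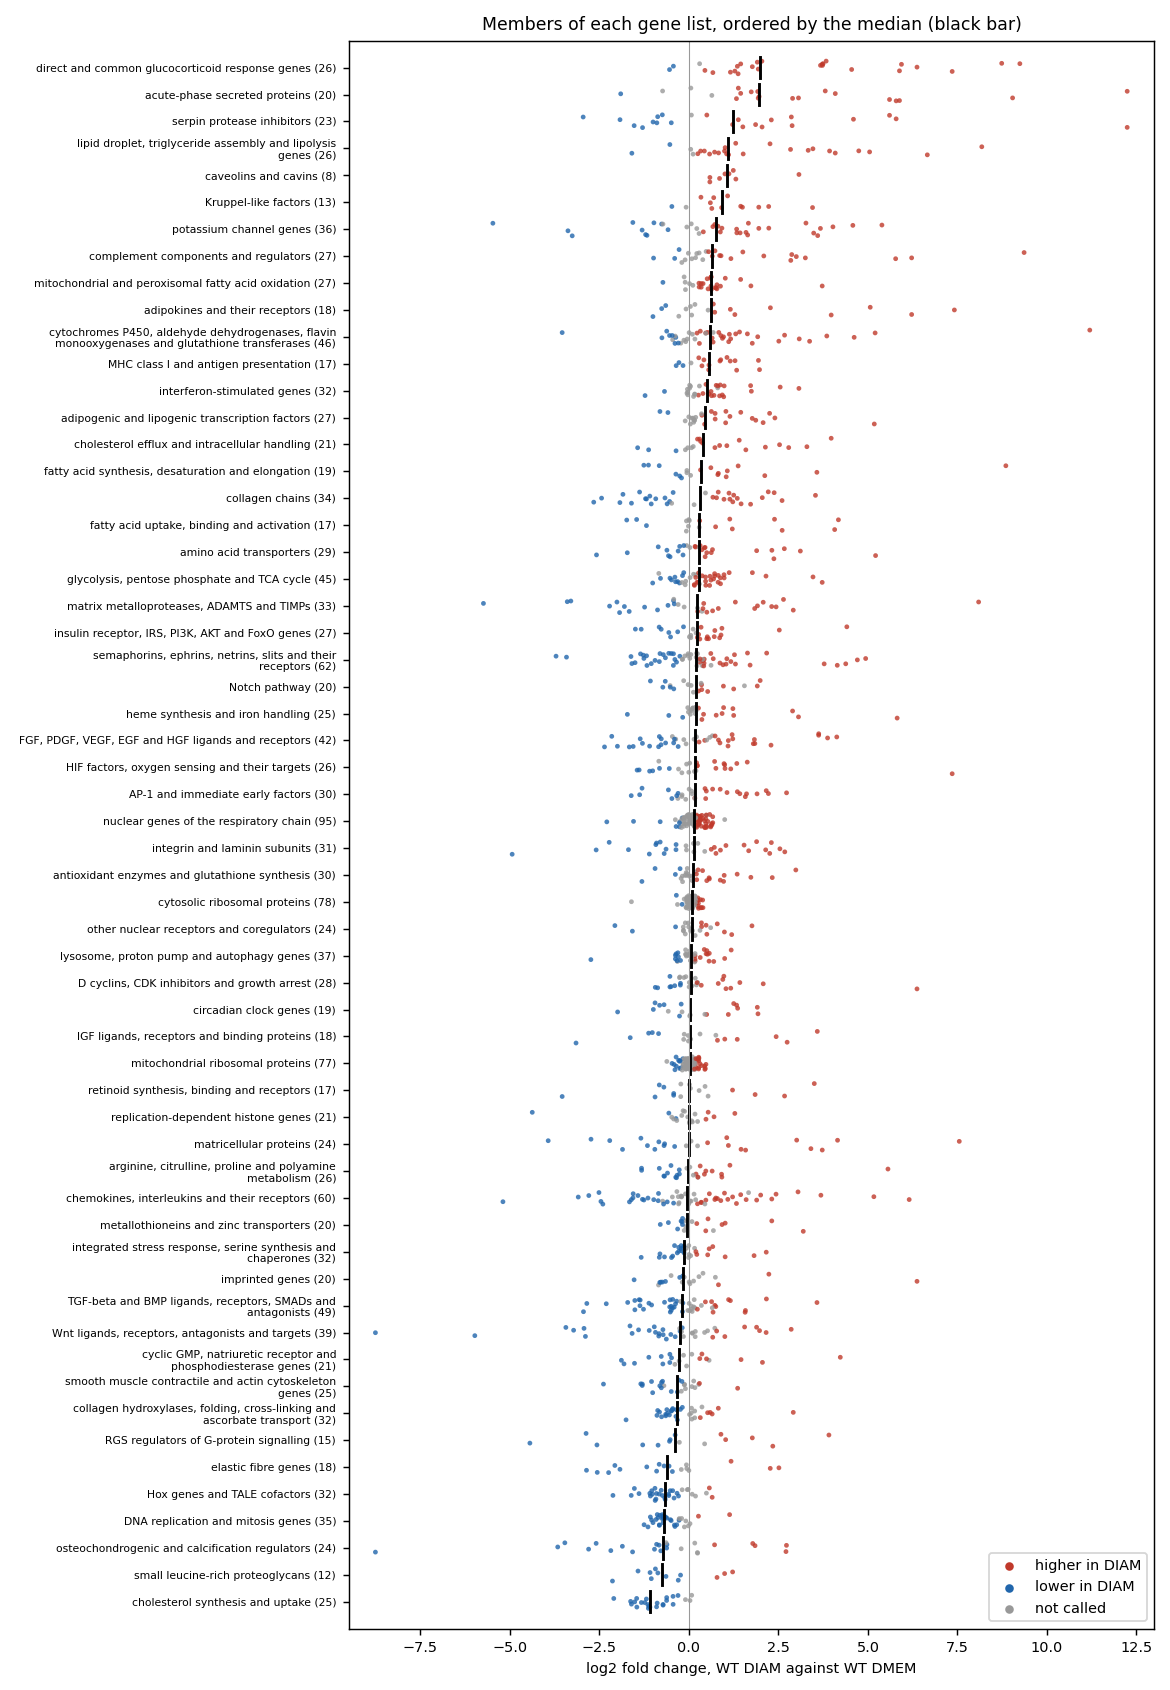
Log2 fold change (horizontal axis) of each tested member of 58 gene lists in WT cells, DIAM against DMEM, with red for genes that rose, blue for genes that fell and grey for genes not called. Lists are ordered by their median, the black bar, from 1.99 for glucocorticoid response genes to -1.09 for cholesterol synthesis and uptake, and the number tested is in brackets.

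The 6 largest gains in CPM were those of Gsn, Serpina3n, Selenop, Hp, Gas6 and Scd1. Gsn, the actin-severing protein gelsolin, which also circulates in plasma, stood at 775, 772, 795 and 745 CPM in DMEM and 10194, 8572, 12940.0 and 12382 CPM in DIAM (log2 fold change 3.84 ± 0.12 SE, adjusted p = 3.71e-13, edgeR). Serpina3n, an acute-phase inhibitor of serine proteases, stood at 162, 142, 164 and 213 CPM in DMEM and 9376, 12367, 7879 and 7979.9 CPM in DIAM (log2 fold change 5.79 ± 0.26 SE, adjusted p = 6.74e-11, edgeR). Selenop, the plasma carrier of selenium, stood at 622, 629, 559 and 566 CPM in DMEM and 4740.2, 5004, 4496 and 4565 CPM in DIAM. Every DIAM library lay above every DMEM library for all 3 genes. DIAM library 2 was the highest of its group for Serpina3n and the lowest for Gsn. Hp, haptoglobin, which binds free hemoglobin, rose from 1512 ± 229.5 to 5722 ± 362 CPM, and Gas6, the ligand of the TAM receptor kinases, from 3269 ± 309.8 to 6424 ± 185 CPM. Scd1, a fatty acid desaturase, stood at 389.8, 452, 439.9 and 445 CPM in DMEM and 5340.2, 3444, 5398 and 6371 CPM in DIAM. Serpina3n belongs to a cluster of near-identical genes between which reads may be shared, so the split among the cluster's members is uncertain. Of the largest losses, fibronectin, Fn1, fell from 10921 ± 515 to 8276 ± 737 CPM, Sparc, a collagen-binding glycoprotein, from 9032 ± 751 to 5637 ± 874 CPM, and Sfrp1, a secreted Wnt antagonist, from 4110.0 ± 347 to 1312 ± 71.1 CPM.

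Among the largest relative rises, several genes went from a few counts to a clear level. Cldn11, a tight-junction claudin, stood at 0.0693, 0.0516, 0.0845 and 0.0247 CPM in DMEM and 39.3, 30.2, 45.8 and 36.2 CPM in DIAM. Thrsp, a nuclear protein that promotes fat synthesis, stood at 0.231, 0.335, 0.528 and 0.395 CPM in DMEM and 168, 74.3, 222 and 236 CPM in DIAM. Car3, the carbonic anhydrase of fat and muscle, stood at 0.647, 0.851, 0.740 and 1.14 CPM in DMEM and 156, 100.0, 175 and 183 CPM in DIAM. All 3 rose, and since their DMEM levels were low the levels are given in place of folds. Timp4, an inhibitor of matrix metalloproteases, went from 0.469 to 124 CPM. Among the largest relative falls, Scg2, the secretory granule protein secretogranin II, stood at 251, 482, 399.6 and 335 CPM in DMEM and 7.84, 3.78, 13.5 and 6.56 CPM in DIAM (log2 fold change -5.53 ± 0.41 SE, adjusted p = 3.70e-08, edgeR). Nell2, a secreted thrombospondin-like protein, went from 22.3 to 0.198 CPM, Sost, the Wnt antagonist sclerostin, from 18.1 to 0.0389 CPM and Gas2, an actin-binding protein, from 52.4 to 1.64 CPM. Angptl7, Cck, Grik1 and Ptprz1 also fell, with log2 fold changes of -4.77, -4.21, -5.13 and -3.98.

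**Figure D2:**
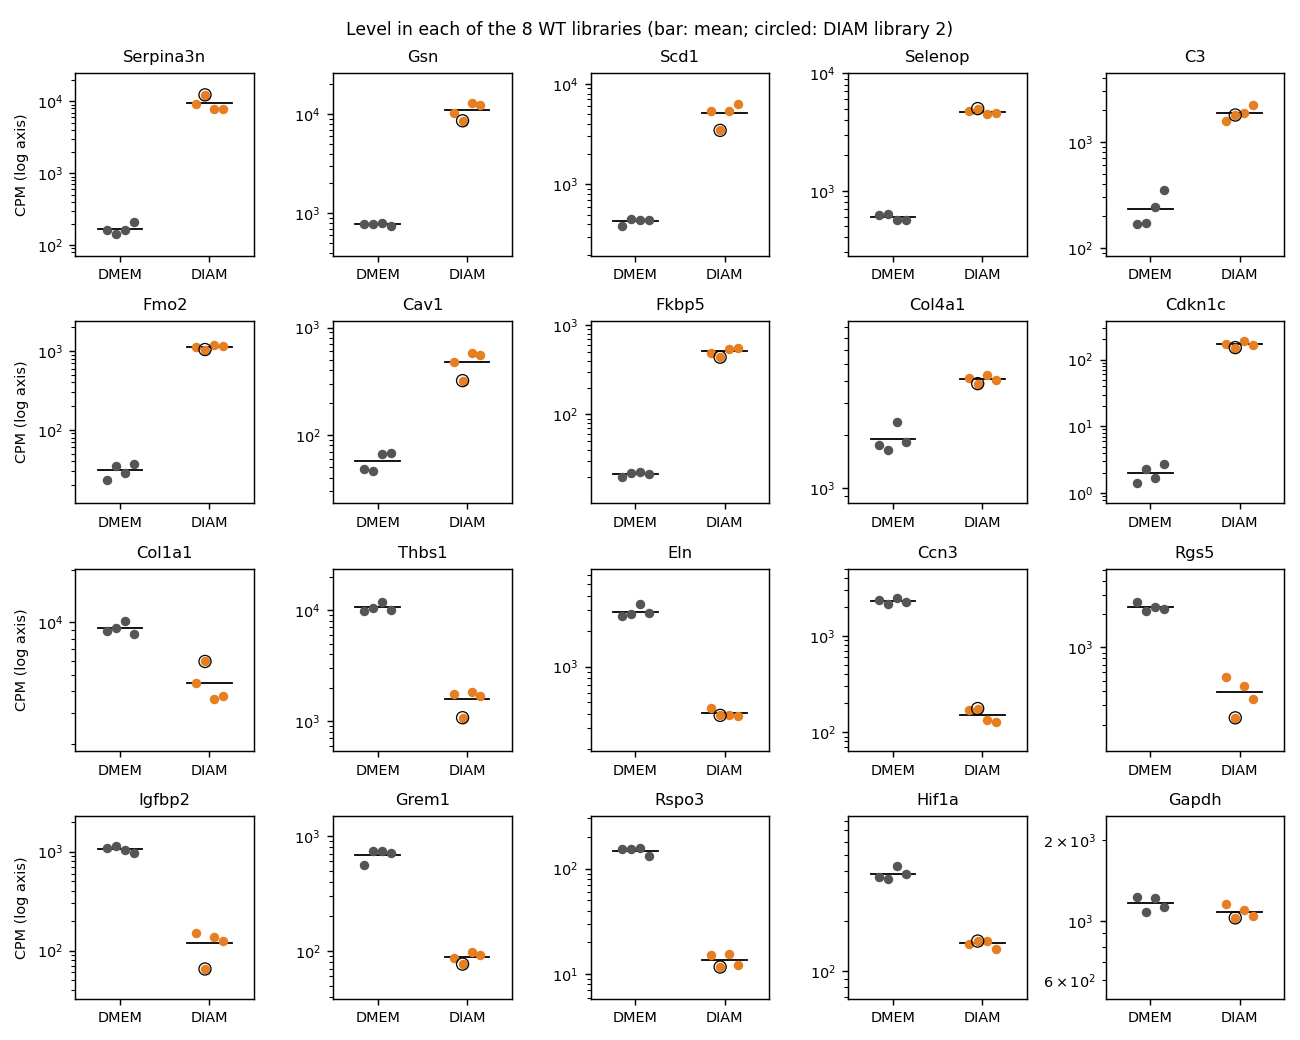
CPM (vertical log axis) of 20 genes in each of the 8 WT libraries, with the mean as a bar and DIAM library 2 circled. The first 10 genes are higher in all 4 DIAM libraries, the next 9 are lower in all 4, and Gapdh, a glycolytic enzyme, overlaps between the media.

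Glucocorticoid response genes had the highest median of the 58 gene lists, cell type markers left aside. Of 26 members tested, 23 rose and 2 fell, with a median log2 fold change of 1.99 against -0.01 over all genes. Cdkn1c, the imprinted cell cycle inhibitor p57, stood at 1.41, 2.35, 1.71 and 2.72 CPM in DMEM and 169, 151, 189 and 164 CPM in DIAM (log2 fold change 6.37 ± 0.31 SE, adjusted p = 3.05e-10, edgeR). Glul, glutamine synthetase, stood at 84.6, 92.7, 81.1 and 107 CPM in DMEM and 1237, 1019.9, 1449.9 and 1494 CPM in DIAM. Errfi1, a feedback inhibitor of the EGF receptor, stood at 36.2, 34.5, 42.6 and 45 CPM in DMEM and 519, 396, 548 and 558 CPM in DIAM. For these 3 genes all DIAM libraries were above all DMEM libraries. Pdk4, the kinase that shuts off pyruvate dehydrogenase, rose from 21.6 to 285 CPM and Lcn2, the siderophore-binding lipocalin, from 3.14 to 185 CPM. Hsd11b1, the enzyme that regenerates active glucocorticoid from its inactive form, rose from 31.6 ± 4.08 to 121 ± 28.1 CPM. Pik3ip1, an inhibitor of PI3 kinase, fell from 44 ± 3.80 to 32.6 ± 3.97 CPM. The other fall was that of the gene for the glucocorticoid receptor itself. The list was written with earlier results of these data known, so its count is not independent evidence of a direction.

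The promoters of these genes are shown because the receptor binds a known palindrome. The windows are RefSeq's, from build GRCm38.p6, and run from 250 bases before to 50 after each start site. The element searched was GNACANNNTGTNC, which reads the same on both strands. It occurs in 0.475% of 32851 windows. Of the 336 genes up at least 8-fold, 222 had a window and 10 of these (4.5%) held the element, against 46 of 10426 (0.441%) of all tested genes with one. The 10 include Serpina3c and Serpina3n, which belong to the same cluster of near-identical genes. Of all genes that rose and had a window, 20 of 2919 (0.685%) held the element, and of those that fell 11 of 2875 (0.383%). Among the glucocorticoid response list it was in 2 of 21, Fam107a and Sgk1. The capitals below mark the element, and the 250 bases before the start are given 5′ to 3′ on the gene's strand.
Serpina3n (chr12:104406458-104406707, plus strand): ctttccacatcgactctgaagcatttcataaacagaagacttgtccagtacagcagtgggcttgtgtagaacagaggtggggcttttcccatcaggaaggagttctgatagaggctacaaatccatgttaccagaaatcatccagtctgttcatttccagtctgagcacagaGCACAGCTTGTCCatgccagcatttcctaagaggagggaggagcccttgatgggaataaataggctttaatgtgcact
Fam107a (chr14:8309780-8310029, minus strand): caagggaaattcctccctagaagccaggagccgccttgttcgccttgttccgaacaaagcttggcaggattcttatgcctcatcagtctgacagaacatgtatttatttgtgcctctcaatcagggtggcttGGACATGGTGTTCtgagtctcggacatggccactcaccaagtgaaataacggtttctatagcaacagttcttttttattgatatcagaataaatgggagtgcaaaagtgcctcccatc
Sgk1 (chr10:21993640-21993889, plus strand): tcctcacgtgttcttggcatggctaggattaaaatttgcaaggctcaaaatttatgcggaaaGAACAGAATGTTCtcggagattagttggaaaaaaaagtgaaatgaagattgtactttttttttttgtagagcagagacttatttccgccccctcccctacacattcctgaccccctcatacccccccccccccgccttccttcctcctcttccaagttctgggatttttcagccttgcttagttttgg
The element begins 78 bases before the start of Serpina3n. It begins 118 bases before the one printed of 3 start sites of Fam107a and 188 before the one printed of 6 of Sgk1. For both of these genes the window with the most matches was printed. Fam107a, a stress-induced actin-associated protein, went from 0.0586 to 26.4 CPM, and Sgk1, a kinase related to AKT that controls ion transport, from 31.2 to 414 CPM. A match describes these letters only and does not show binding.

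Clock genes changed in both directions. Of 19 tested, 7 rose and 7 fell. The period and cryptochrome repressors Per1, Per2, Cry1 and Cry2 rose, with log2 fold changes of 1.91, 1.25, 0.49 and 1.36, as did Bmal1, the core activator, at 1.10. Dbp, an output factor driven by the clock, stood at 40.0, 41.1, 40.4 and 40.2 CPM in DMEM and 10.7, 9.25, 10.5 and 10.2 CPM in DIAM (log2 fold change -1.99 ± 0.05 SE, adjusted p = 7.06e-14, edgeR). Its 4 DIAM libraries were all below its 4 DMEM libraries. Per3, Nr1d2 and Bhlhe40 fell as well, with log2 fold changes of -1.0, -0.82 and -0.95. Clock itself, the partner of Bmal1, was not called at 0.02. The E-box CACGTG, which the clock activators bind and which is its own reverse complement, was in 5 of the 15 clock promoters with a window (33.3%), against 11.5% of the 10426 tested genes with one and 8.09% of all 27025 genes. No series of harvest times was measured, so no phase can be read from these levels.

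Kruppel-like factors, zinc-finger regulators of differentiation, rose almost as a family. Of 13 tested, 11 rose and 1 fell, with a median of 0.91. Klf15, a glucocorticoid-induced regulator of amino acid and lipid use, stood at 14.3, 18, 16.4 and 18.9 CPM in DMEM and 79, 70.6, 82.5 and 84 CPM in DIAM, and Klf13 at 46.6, 52.7, 50.1 and 60.0 CPM in DMEM and 183, 181, 216 and 228 CPM in DIAM. Neither gene overlapped between the media. Klf4, which opposes the contractile programme of smooth muscle, rose from 49.2 ± 2.58 to 139 ± 4.67 CPM (log2 fold change 1.49 ± 0.05 SE, adjusted p = 2.78e-12, edgeR), and Klf5 from 1.42 to 15.7 CPM. Klf16 fell, with a log2 fold change of -0.48, and Klf2 was not called at -0.08. Among 24 other nuclear receptors and coregulators, 8 rose and 3 fell, 45.8% called against 55.1% of all genes tested. The sex steroid receptors Pgr and Esr1 fell from 14 to 3.33 CPM and from 6.85 to 2.29 CPM, and the orphan receptors Nr4a1 and Nr2f2 and the vitamin D receptor Vdr rose, with log2 fold changes of 1.76, 0.99 and 1.19.

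The adaptors of the insulin receptor changed in opposite directions. Irs1 stood at 48.6, 64.7, 54.2 and 41.7 CPM in DMEM and 20.7, 12.6, 21 and 19.9 CPM in DIAM (log2 fold change -1.50 ± 0.18 SE, adjusted p = 3.87e-06, edgeR). Irs2 stood at 31.7, 37.7, 37.8 and 43.2 CPM in DMEM and 73, 61.5, 70.8 and 74.4 CPM in DIAM (log2 fold change 0.89 ± 0.09 SE, adjusted p = 3.14e-07, edgeR). Both are docking proteins of the insulin receptor, and for both the media did not overlap. Insr, the receptor, rose from 42.7 ± 5.07 to 69.6 ± 8.74 CPM. Slc2a4, the insulin-regulated glucose transporter GLUT4, stood at 0.809, 2.09, 1.92 and 2.0 CPM in DMEM and 35.1, 20.9, 41.3 and 47.5 CPM in DIAM, and Tbc1d4, the AKT substrate that controls it, rose from 3.55 to 20.4 CPM. The FoxO factors Foxo1, Foxo3 and Foxo4 rose, with log2 fold changes of 0.50, 0.72 and 0.34, while the AKT kinase Akt1 fell, at -0.15, and Akt2 was not called. Of all 27 members of the list, 14 rose and 8 fell.

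In the insulin-like growth factor system, 6 rose and 5 fell of 18 genes, 61.1% called against 55.1% of all genes tested. Igfbp2, a binding protein, stood at 1086, 1141, 1046 and 971 CPM in DMEM and 149, 65.1, 137 and 125 CPM in DIAM (log2 fold change -3.15 ± 0.25 SE, adjusted p = 6.40e-08, edgeR), and DIAM library 2 held the lowest value. Igf1 itself fell from 68.3 ± 11.1 to 21.9 ± 1.97 CPM. Igfbp6, a binding protein with preference for IGF2, rose from 88.4 ± 5.97 to 478 ± 22.9 CPM. Pappa, the protease that frees IGF from binding proteins, fell from 141 ± 7.28 to 64.5 ± 5.72 CPM, and Stc2, an inhibitor of that protease, rose from 3.24 ± 0.414 to 38.8 ± 10.3 CPM. Igf2 and Igf1r were not called, with log2 fold changes of -0.13 and 0.05.

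Genes of fat storage rose together. Of 26 lipid droplet and triglyceride genes, 22 rose and 2 fell, with a median log2 fold change of 1.08. Plin1, the droplet coat protein of fat cells, stood at 4.0, 4.90, 5.62 and 4.27 CPM in DMEM and 125, 70.5, 155 and 154 CPM in DIAM, and Cidec, which fuses droplets, at 0.532, 0.413, 0.549 and 0.544 CPM in DMEM and 153, 78.7, 183 and 182 CPM in DIAM. Gpd1, which makes the glycerol backbone, stood at 1.29, 1.13, 2.05 and 1.93 CPM in DMEM and 160.4, 88.4, 198 and 205 CPM in DIAM (log2 fold change 6.66 ± 0.32 SE, adjusted p = 2.64e-10, edgeR). All 3 were higher in every DIAM library, and for all 3 the level in library 2 was the lowest of the 4. Dgat2 and Agpat2, acyltransferases of triglyceride assembly, rose from 5.36 to 81.6 CPM and from 25.2 to 121 CPM, and Lipe, hormone-sensitive lipase, from 6.40 to 109 CPM. Mogat2 and Lpin2 fell. Summed over the list, DIAM library 2 held 1840 CPM and the other DIAM libraries 2480 to 2790 CPM.

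Many transcription factors of fat cells rose. Of 27 tested, 15 rose and 2 fell. Pparg, the master regulator of adipogenesis, stood at 13.2, 16.3, 16.8 and 11.8 CPM in DMEM and 52.6, 35.4, 62.5 and 61.2 CPM in DIAM (log2 fold change 1.87 ± 0.18 SE, adjusted p = 3.69e-07, edgeR), and Cebpa rose from 71.9 ± 13.1 to 245 ± 59.1 CPM. Mlxipl, the glucose-sensing factor ChREBP, rose from 0.324 to 12.1 CPM and Ppargc1a, a coactivator of mitochondrial genes, from 0.793 to 4.17 CPM. Cebpb, which acts early in fat cell formation, was not called. Srebf1, which drives fatty acid genes, rose from 107 ± 2.75 to 178 ± 19.3 CPM and Srebf2, which drives cholesterol genes, fell from 228 ± 18.8 to 151 ± 4.98 CPM. Of 19 genes of fatty acid synthesis, 10 rose and 6 fell: Fasn, fatty acid synthase, rose from 330.1 ± 40.1 to 1432 ± 536 CPM, and the elongase Elovl6 and desaturase Fads2 fell, with log2 fold changes of -1.13 and -1.26. Of 27 genes of fatty acid oxidation, 21 rose and 1 fell, among them the beta-oxidation enzyme Acaa2, from 21.1 ± 0.617 to 70.0 ± 7.49 CPM. The fall was that of Cpt1c, a carnitine transferase of neurons.

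Of 18 genes of adipokines, the hormones of fat cells, and their receptors, 9 rose and 3 fell, with a median log2 fold change of 0.61. Adipoq, the hormone adiponectin, stood at 3.40, 5.11, 6.38 and 5.68 CPM in DMEM and 181, 119, 195 and 194 CPM in DIAM, and Cfd, adipsin or complement factor D, at 2.80, 4.38, 4.14 and 4.79 CPM in DMEM and 332, 208, 322 and 338 CPM in DIAM. For both genes the libraries separated by medium. Apod, a lipocalin that carries lipids, rose from 8.22 to 129 CPM. C1qtnf3 and C1qtnf7, adiponectin paralogs, fell, with log2 fold changes of -1.01 and -0.76. The 8 adipocyte markers that could be tested all rose, and summed to 91.6 to 115 CPM in DMEM, 1520 CPM in DIAM library 2 and 2130 to 2450 CPM in the other DIAM libraries. The adipocyte markers and the fat genes share members, so the markers give no separate view of them. Lpl, lipoprotein lipase, rose from 241 ± 45 to 1264 ± 347 CPM.

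Cholesterol synthesis and uptake genes fell together. Of 25 tested, 0 rose and 22 fell, with a median log2 fold change of -1.09, the lowest of the 58 lists. Hmgcs1, an early enzyme of the pathway, stood at 207, 244, 244 and 221 CPM in DMEM and 111, 105, 106 and 107 CPM in DIAM (log2 fold change -1.09 ± 0.08 SE, adjusted p = 5.75e-09, edgeR). Its DIAM libraries were all below its DMEM libraries. Idi1, an isomerase of the isoprenoid steps, fell from 157 ± 9.26 to 62.6 ± 3.47 CPM. The 3 members not called were Insig2, Pmvk and Dhcr7.

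The Hmgcs1 promoter is shown because sterol-responsive genes carry a sterol element beside CCAAT boxes. The element TCACNCCAC and the box CCAAT were searched on both strands, and the box appears as ATTGG where it lies on the other strand. The box was in 16 of the 17 cholesterol genes with a window (94.1%), against 43.1% of tested genes with one and 37.4% of all windows. Of those 16 genes 13 fell, and of all 17 with a window 14 fell. Among all genes that fell and had a window, 44.2% held the box. The sterol element was in 1 of 17, Hmgcs1, and in 1.4% of tested genes and 1.24% of all windows. Capitals mark both.
Hmgcs1 (chr13:119690101-119690350, plus strand): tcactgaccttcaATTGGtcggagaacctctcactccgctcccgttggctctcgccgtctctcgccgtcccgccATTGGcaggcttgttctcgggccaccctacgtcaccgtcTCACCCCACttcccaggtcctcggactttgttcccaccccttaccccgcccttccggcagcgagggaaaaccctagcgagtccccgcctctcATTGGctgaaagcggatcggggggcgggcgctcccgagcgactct
The boxes begin 237, 176 and 45 bases before the start and the sterol element 137 bases before it.

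Genes that move cholesterol out of cells mostly went the other way. Of 21 tested, 14 rose and 3 fell. Abcg1, a transporter that loads cholesterol onto HDL, stood at 7.26, 5.55, 6.23 and 7.14 CPM in DMEM and 29.3, 22.6, 35.2 and 27.9 CPM in DIAM, and Abca1 rose from 92.4 ± 12 to 167 ± 17.9 CPM. Abca8a and Abca8b, related transporters, rose from 9.25 to 90.8 CPM and from 5.58 to 38.5 CPM. Apoe, the apolipoprotein that accepts cholesterol, rose from 494 ± 105 to 1029 ± 183 CPM. Mylip, a ubiquitin ligase induced by the sterol-sensing LXR receptors, and Ch25h, which makes an oxysterol, fell, with log2 fold changes of -1.13 and -1.43. All 8 caveola genes tested rose. Cav1, the main caveolin of these membrane pits, stood at 48.8, 46.2, 66.4 and 67.6 CPM in DMEM and 475, 321, 577 and 553 CPM in DIAM (log2 fold change 3.07 ± 0.21 SE, adjusted p = 1.13e-08, edgeR). The DIAM libraries were all above the DMEM libraries, with library 2 lowest among them. Cavin1, the coat protein, rose from 539 ± 30.5 to 809 ± 75.3 CPM.

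Carbon metabolism genes changed in both directions. Pcx, pyruvate carboxylase, which feeds oxaloacetate into the citric acid cycle, stood at 31.4, 35, 36.3 and 35.3 CPM in DMEM and 375, 204, 466 and 479 CPM in DIAM (log2 fold change 3.46 ± 0.22 SE, adjusted p = 3.75e-09, edgeR). The cycle enzymes Cs, Idh3a and Ogdh rose, with log2 fold changes of 0.59, 0.88 and 0.61. The glycolytic enzymes Pfkl, Pfkm, Eno1 and Pgk1 fell, at -0.53, -0.49, -0.39 and -0.32, as did Pdk1, a pyruvate dehydrogenase kinase, at -1.01. Pfkp, another phosphofructokinase, rose, at 1.12. Gapdh was not called and stood at 1225, 1076, 1217 and 1127 CPM in DMEM and 1157, 1025, 1099 and 1038 CPM in DIAM. Of all 45 members of the list, 27 rose and 10 fell. Of 95 nuclear genes of the respiratory chain, 38 rose and 7 fell, 47.4% called against 55.1% of all genes tested. The shifts were small (Sdha, of complex II, at 0.66). Ndufa4l2, a hypoxia-induced subunit homolog, fell from 31.2 ± 4.50 to 6.35 ± 1.48 CPM. In this list 4 genes fell without DMEM library 1 and 12 without DMEM library 4. Mitochondrially encoded transcripts summed to 13100 to 15500 CPM in DMEM and 17600 to 19600 CPM in DIAM. Of 78 cytosolic ribosomal protein genes, 15 rose and 2 fell, 21.8% called. The number that rose was 37 without DMEM library 1, 7 without DMEM library 3, 9 without DMEM library 4, 7 without DIAM library 2 and 24 without DIAM library 4, and it was 8 in the fit of the 8 WT libraries alone and 6 with quantile normalization.

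Collagen genes divided by class. Of 34 chains tested, 16 rose and 15 fell. The basement membrane chains of type IV rose in 5 of 6, with a median log2 fold change of 1.18. Col4a1 stood at 1752, 1645, 2352 and 1814 CPM in DMEM and 4159, 3863, 4342 and 4050.4 CPM in DIAM (log2 fold change 1.12 ± 0.11 SE, adjusted p = 3.00e-07, edgeR). All 6 chains of types VI and XXVIII rose, and so did both multiplexins, Col15a1 and Col18a1, whose ends are cleaved to endostatin-like fragments. Col28a1 stood at 253, 272, 321 and 379 CPM in DMEM and 1636, 1529, 1705 and 1504 CPM in DIAM, and Col18a1 at 152, 88, 147 and 105 CPM in DMEM and 756, 991, 602 and 639 CPM in DIAM, with DIAM library 2 the highest. Schwann cell marker genes, beside these, summed to 30.7 to 93.6 CPM in DMEM, 778 CPM in DIAM library 2 and 324 to 517 CPM in the other DIAM libraries, and their part in the result was not tested.

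Of the 11 fibril-forming chains 2 rose and 7 fell, with a median of -0.61. Col1a1, a chain of type I collagen, stood at 8964, 9278, 10220.0 and 8571 CPM in DMEM and 4481, 5954, 3622 and 3780.5 CPM in DIAM (log2 fold change -1.05 ± 0.20 SE, adjusted p = 3.13e-04, edgeR). Every DIAM library was below every DMEM library, and library 2 was the nearest to them. Col5a2 fell from 3736 ± 381 to 1227 ± 153 CPM. Col3a1 was not called, at -0.48. Its call depended on the model. With all libraries of both media it was called in the fit of the 8 WT libraries alone (edgeR adjusted p = 0.0143), with DESeq2 (adjusted p = 0.024), with limma at a pseudocount of 1 (adjusted p = 0.0488), with quantile normalization (limma adjusted p = 0.00125) and in the authors' deposited table (adjusted p = 0.00139). It was also called without DMEM library 2, at -0.57 (edgeR adjusted p = 0.04), and without DIAM library 2, at -0.61 (edgeR adjusted p = 0.0257). Col5a3 and Col11a1 rose, at 1.72 and 0.98. The summed level of fibril-forming chains was 25040 to 29590 CPM in DMEM and 13560 to 19520 CPM in DIAM. All 4 fibril-associated chains and all 3 of types VIII and X fell. Col12a1 fell from 3008 ± 190.3 to 1297 ± 136 CPM and Col8a2 from 74.8 ± 14.9 to 13.8 ± 4.81 CPM.

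**Figure D3:**
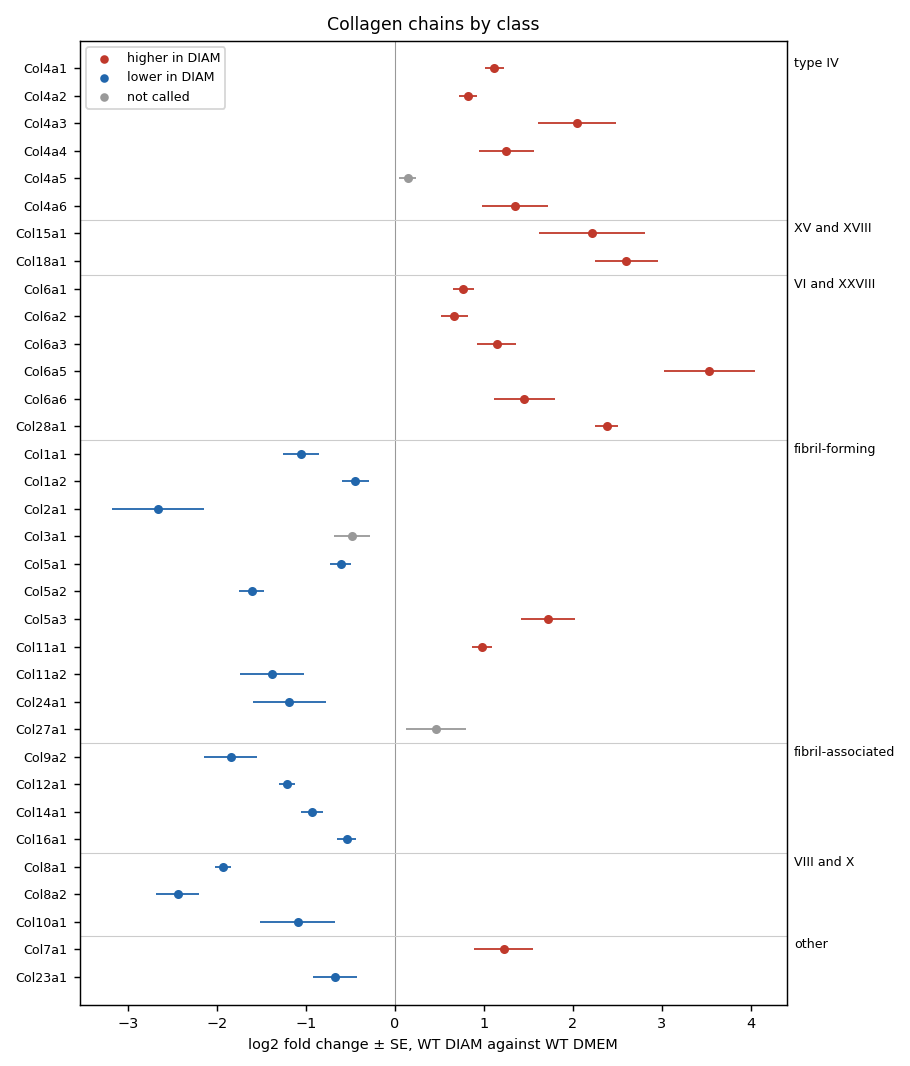
Log2 fold change with its standard error (horizontal axis) of each tested collagen chain in WT cells, DIAM against DMEM, grouped by class between the grey lines. No type IV, multiplexin, type VI or type XXVIII chain fell, and all 7 fibril-associated and type VIII and X chains did.

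The enzymes and chaperones that process collagen mostly fell. Of 32 tested, 6 rose and 19 fell, with a median of -0.34. Plod2, the telopeptide lysyl hydroxylase that sets collagen cross-links and uses ascorbate, stood at 868, 834, 966 and 873 CPM in DMEM and 266, 211, 283 and 288 CPM in DIAM (log2 fold change -1.76 ± 0.12 SE, adjusted p = 3.72e-09, edgeR). Serpinh1, the collagen chaperone HSP47, stood at 2098, 1929, 1985 and 1776 CPM in DMEM and 1091, 1222, 955 and 982 CPM in DIAM. No DMEM library reached the DIAM range for either. P4ha1, a prolyl hydroxylase subunit, fell from 441 ± 24.7 to 249 ± 22.1 CPM and Loxl1, a lysyl oxidase that acts on elastin, from 1097 ± 92.9 to 589.9 ± 67.5 CPM. Adamts2, which trims the amino end of procollagen, rose from 640.3 ± 64.2 to 1130.1 ± 33.1 CPM, and Plod1 and P4ha2 rose, at 0.52 and 0.32.

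Elastic fibre genes mostly fell. Of 18 tested, 3 rose and 11 fell, with a median of -0.63. Eln, elastin, stood at 2679, 2768, 3386 and 2838 CPM in DMEM and 443, 387, 389.8 and 385 CPM in DIAM (log2 fold change -2.86 ± 0.23 SE, adjusted p = 5.43e-08, edgeR). Fbln5, which assembles elastic fibres, stood at 1650.3, 2132, 1923 and 1857 CPM in DMEM and 337, 228, 363 and 352 CPM in DIAM (log2 fold change -2.56 ± 0.22 SE, adjusted p = 1.32e-07, edgeR). DIAM libraries were all below DMEM libraries for both, by wide margins. Fbn1, fibrillin 1, fell from 1247 ± 100.3 to 848 ± 30.6 CPM and Ltbp2, a latent TGF-beta binding protein homolog, from 1282 ± 103 to 337 ± 71.5 CPM. Efemp1, fibulin 3, Emilin2 and Ltbp4 rose, with log2 fold changes of 2.51, 2.27 and 1.18. All 12 small leucine-rich proteoglycans tested changed, and 3 rose and 9 fell. Fmod, fibromodulin, and Lum, lumican, which organise collagen fibrils, fell from 521 ± 60.3 to 118 ± 21.8 CPM and from 151 ± 25.5 to 56.2 ± 25.7 CPM.

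Matricellular proteins, which signal from the matrix without building it, moved both ways (10 rose and 11 fell of 24). Ccn3 stood at 2349, 2149, 2505 and 2241 CPM in DMEM and 169, 176, 134 and 127 CPM in DIAM (log2 fold change -3.93 ± 0.12 SE, adjusted p = 5.16e-13, edgeR), and Thbs2, thrombospondin 2, at 1874, 1946, 2217 and 1843 CPM in DMEM and 432, 591, 342 and 334 CPM in DIAM. All DIAM values were below all DMEM values. Tnc, tenascin C, fell from 816 ± 101 to 225 ± 69.6 CPM, and the YAP-responsive Ccn1 and Ccn2 fell, at -0.95 and -0.84. Thbs4, thrombospondin 4, rose from 4.82 to 38.6 CPM, Tnn, tenascin N, from 2.0 to 26.5 CPM and Spock2, a proteoglycan, from 2.59 to 46.2 CPM. Smoc2 rose and its paralog Smoc1 fell, at 1.10 and -1.16.

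Among matrix proteases and their inhibitors, 15 rose and 13 fell of 33. Adamts1, a versican-cleaving protease, stood at 305, 321, 369 and 279.6 CPM in DMEM and 1175, 1057, 1226 and 1336 CPM in DIAM. Timp3, the matrix-bound inhibitor, stood at 2559.8, 2338, 2769 and 2216 CPM in DMEM and 733, 532, 719 and 594 CPM in DIAM. Mmp11, stromelysin 3, stood at 130.5, 160.2, 149 and 182 CPM in DMEM and 32.5, 47.2, 24.3 and 29.6 CPM in DIAM. The media did not overlap for these 3 genes. Mmp14, the membrane collagenase, fell from 826 ± 85.9 to 449 ± 57.7 CPM and Mmp2, the gelatinase it activates, from 618 ± 40.1 to 412 ± 89 CPM. Mmp13, an interstitial collagenase, stood at 106, 35.3, 77.1 and 46.2 CPM in DMEM and 4.21, 16.6, 1.79 and 2.14 CPM in DIAM (log2 fold change -3.40 ± 0.66 SE, adjusted p = 4.87e-04, edgeR), so that DIAM library 2 was far above the other 3. Its promoter is shown because it holds the AP-1 site TGANTCA, searched on both strands, as did 4 of the 22 promoters of this list with a window (18.2%, Mmp3, Mmp10, Mmp12 and Mmp13) and 7.81% of all windows.
Mmp13 (chr9:7272264-7272513, plus strand): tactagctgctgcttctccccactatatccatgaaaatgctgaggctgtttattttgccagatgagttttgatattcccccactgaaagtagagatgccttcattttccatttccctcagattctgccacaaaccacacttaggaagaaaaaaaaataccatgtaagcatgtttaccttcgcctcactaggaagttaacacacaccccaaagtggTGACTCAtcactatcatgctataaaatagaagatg
The site begins 35 bases before the start.

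Integrin and laminin subunits moved both ways (13 rose and 12 fell of 31). Itga11, a subunit of the fibrillar collagen receptor, stood at 829.6, 909.6, 994 and 882 CPM in DMEM and 172, 159, 139 and 129.7 CPM in DIAM (log2 fold change -2.59 ± 0.13 SE, adjusted p = 1.66e-10, edgeR). Itga7, a laminin receptor subunit of muscle, stood at 19.9, 12.3, 18.8 and 18.2 CPM in DMEM and 75.8, 110.5, 57.7 and 61.7 CPM in DIAM, and Lama2, a laminin chain of muscle and nerve, at 32.2, 33.4, 36 and 28.5 CPM in DMEM and 194, 200.1, 178 and 185 CPM in DIAM. No library of one medium reached the range of the other for these genes. The laminin receptor subunits Itga6 and Itgb4 rose, at 1.67 and 1.89, and Itgav and Itgb5, which form a vitronectin receptor, fell, at -0.80 and -0.91. Several laminin receptor and laminin genes are also made by Schwann cells, whose markers rose, and their part was not tested.

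Of 25 contractile genes tested, 2 rose and 14 fell. Acta2, smooth muscle actin, stood at 2059, 1920.3, 2216 and 1635 CPM in DMEM and 843, 521, 866 and 852 CPM in DIAM (log2 fold change -1.35 ± 0.24 SE, adjusted p = 1.88e-04, edgeR). Myl9, the regulatory light chain, stood at 446, 438, 505 and 402 CPM in DMEM and 176, 123, 204 and 223 CPM in DIAM. Both were lower in all 4 DIAM libraries. Cald1, caldesmon, fell from 2248 ± 119.7 to 1113 ± 75.1 CPM and Tpm2, a tropomyosin, from 356 ± 41.3 to 173 ± 27.1 CPM. The late contractile genes Myh11 and Lmod1 and Mylk, leiomodin and the myosin light chain kinase, were not called, with log2 fold changes of -0.10, 0.08 and -0.13. The rises were those of Srf, the factor that drives these genes, by 0.29, and its cofactor Myocd, by 1.36. Srf was not called after quantile normalization (limma adjusted p = 0.0529). The coactivator Mrtfa fell, at -0.32.

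Genes of signalling that relaxes or contracts vessels changed in both directions. Rgs5, a brake on G-protein signalling that marks mural cells, stood at 2590.0, 2158, 2337 and 2212 CPM in DMEM and 543, 231, 452 and 339 CPM in DIAM (log2 fold change -2.57 ± 0.30 SE, adjusted p = 4.67e-06, edgeR), and Rgs4 fell from 62.1 ± 9.97 to 8.49 ± 1.93 CPM. Rgs2, which limits angiotensin signalling, rose from 9.90 ± 1.10 to 33.7 ± 7.07 CPM. Npr1, the receptor for atrial natriuretic peptide, stood at 2.13, 2.89, 3.49 and 4.30 CPM in DMEM and 53, 32.3, 72 and 82.6 CPM in DIAM. Neither Rgs5 nor Npr1 overlapped between media. Pde5a, which breaks down cyclic GMP, stood at 143, 190.4, 169 and 191 CPM in DMEM and 50.9, 39.9, 49 and 57.3 CPM in DIAM. Gucy1b1, a subunit of the nitric oxide receptor, and Prkg1, the cyclic GMP kinase, fell, at -1.12 and -0.73. In the potassium channel list, 21 rose and 10 fell of 36. Kcnma1, the large-conductance calcium-activated channel of smooth muscle, fell from 15.7 ± 1.63 to 1.62 ± 0.950 CPM, and Kcnj8, of the ATP-sensitive channel, from 3.52 ± 0.670 to 1.42 ± 0.570 CPM. Kcnd3 and the voltage-gated Kcna1, Kcna2 and Kcna6 rose, from 1.42 to 33.8 CPM, 0.739 to 8.36 CPM, 0.463 to 7.72 CPM and 2.43 to 23.5 CPM. With a filter at 5 CPM the channel list kept 10 rises and 5 falls, because fewer members were tested.

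Replication and mitosis genes mostly fell, since 2 rose and 26 fell of 35, with a median of -0.70. Tk1, thymidine kinase, stood at 8.46, 7.76, 6.11 and 6.67 CPM in DMEM and 3.91, 4.02, 2.18 and 2.03 CPM in DIAM (log2 fold change -1.25 ± 0.22 SE, adjusted p = 1.53e-04, edgeR). Top2a, the topoisomerase of dividing cells, fell from 40.7 ± 3.05 to 22.4 ± 5.30 CPM, Bub1b, of the spindle checkpoint, from 8.58 ± 0.891 to 3.88 ± 0.529 CPM and Mki67 from 21 ± 2.87 to 12.7 ± 2.76 CPM. The replication genes Pcna, Mcm6 and Mcm7 were not called, with log2 fold changes of -0.09, -0.02 and 0.03. The 2 ribonucleotide reductase genes rose, Rrm1 by 0.26 and Rrm2 by 1.14. Among D cyclins, Ccnd1 and Ccnd3 rose, from 207 to 423 CPM and from 105 to 185 CPM, and Ccnd2 fell from 1057 to 551 CPM. Cdkn1a, the inhibitor p21, fell from 384 ± 29.7 to 292 ± 30.4 CPM.

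In the Wnt pathway, 8 rose and 21 fell of 39. R-spondins strengthen Wnt signals. Rspo3 stood at 153, 153, 157 and 131 CPM in DMEM and 15.3, 11.7, 15.6 and 12.2 CPM in DIAM (log2 fold change -3.44 ± 0.11 SE, adjusted p = 5.03e-13, edgeR), and Rspo2 at 201, 244, 219.7 and 200.1 CPM in DMEM and 30.7, 27.9, 27 and 30.9 CPM in DIAM. Their DIAM libraries were all below their DMEM libraries. Rspo1 was not called, at 0.72, but was called higher in the fit of the 8 WT libraries alone (edgeR adjusted p = 0.0192) and in the authors' deposited table (adjusted p = 0.00469). Lgr5, an R-spondin receptor, fell from 21.2 ± 7.40 to 2.77 ± 0.608 CPM, and the Frizzled receptors Fzd1, Fzd2, Fzd5, Fzd7 and Fzd8 fell, at -0.51, -1.11, -1.41, -0.72 and -1.59. The Wnt target Axin2 and the nuclear factor Tcf7 rose, from 1.71 to 5.03 CPM and from 0.551 to 2.47 CPM.

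TGF-beta and BMP genes fell more often than they rose (12 rose and 25 fell of 49). Grem1, a secreted BMP antagonist, stood at 560.2, 732, 741 and 703 CPM in DMEM and 87, 76.9, 98.6 and 92.5 CPM in DIAM (log2 fold change -2.95 ± 0.16 SE, adjusted p = 4.39e-10, edgeR), and Gdf6, a BMP family ligand, at 52.8, 46.7, 55.3 and 60.8 CPM in DMEM and 9.48, 8.68, 12.3 and 13 CPM in DIAM. No DIAM value reached the DMEM range. The 3 TGF-beta ligands fell, Tgfb1, Tgfb2 and Tgfb3, with log2 fold changes of -0.53, -1.36 and -0.52. Inhba, the activin A subunit, fell from 127 ± 11.7 to 44.6 ± 6.18 CPM, and Inhbb, that of activin B, rose from 25.8 ± 2.27 to 115 ± 23.4 CPM. The BMP antagonists Chrdl1 and Chrd rose, from 6.97 to 83 CPM and from 7.72 to 22.9 CPM. Tgfbr1, the type I TGF-beta receptor, was not called, and the co-receptor Tgfbr3 rose from 114 ± 16.7 to 339.7 ± 17.2 CPM.

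Growth factor genes changed by ligand. Pdgfd stood at 113, 99.6, 105 and 102 CPM in DMEM and 22.3, 20.2, 24.6 and 26.9 CPM in DIAM, and Pdgfrb, the PDGF receptor of mural cells, fell from 1085 ± 87.2 to 635 ± 15.8 CPM. Fgf5 rose from 1.37 to 24.3 CPM, while Fgf7, Fgf9 and Fgf10 fell, at -1.56, -2.36 and -2.0. Vegfa fell from 101 ± 4.26 to 47.1 ± 8.92 CPM and Vegfc, a lymphatic ligand, rose from 9.04 ± 1.71 to 32.5 ± 6.54 CPM. Egfr rose from 182 ± 22.1 to 419.8 ± 57.5 CPM, with its ligands Tgfa by 3.62, Btc by 1.83 and Ereg by 1.80 on the log2 scale. In the Notch list, 8 rose and 5 fell of 20. Lfng, which modifies Notch, rose from 13.7 ± 0.401 to 54.5 ± 2.82 CPM and the effector Hey2 fell from 11.9 ± 1.56 to 5.63 ± 1.05 CPM.

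Hox genes, which record position along the body axis, fell across 3 clusters. All 8 tested Hoxa, all 8 Hoxb and all 6 Hoxc genes fell, with medians of -0.80, -0.99 and -0.99, and the single Hoxd gene tested, Hoxd8, was not called. Hoxb9 stood at 50.4, 46.1, 48.2 and 39.3 CPM in DMEM and 18.2, 13.3, 15.4 and 13.3 CPM in DIAM (log2 fold change -1.61 ± 0.11 SE, adjusted p = 5.80e-09, edgeR), and Hoxc8 at 48.7, 49.1, 57.1 and 44.9 CPM in DMEM and 22.8, 20.4, 25.8 and 24.8 CPM in DIAM. Both genes were apart in all 8 libraries. Hoxa9 and Hoxb8 fell, at -2.12 and -1.52. The TALE cofactors of Hox proteins went both ways: Meis1 fell, and Meis2 and Pbx4 rose. Genes of a Hox cluster lie side by side and overlap in antisense transcripts, so they are not independent counts.

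**Figure D4:**
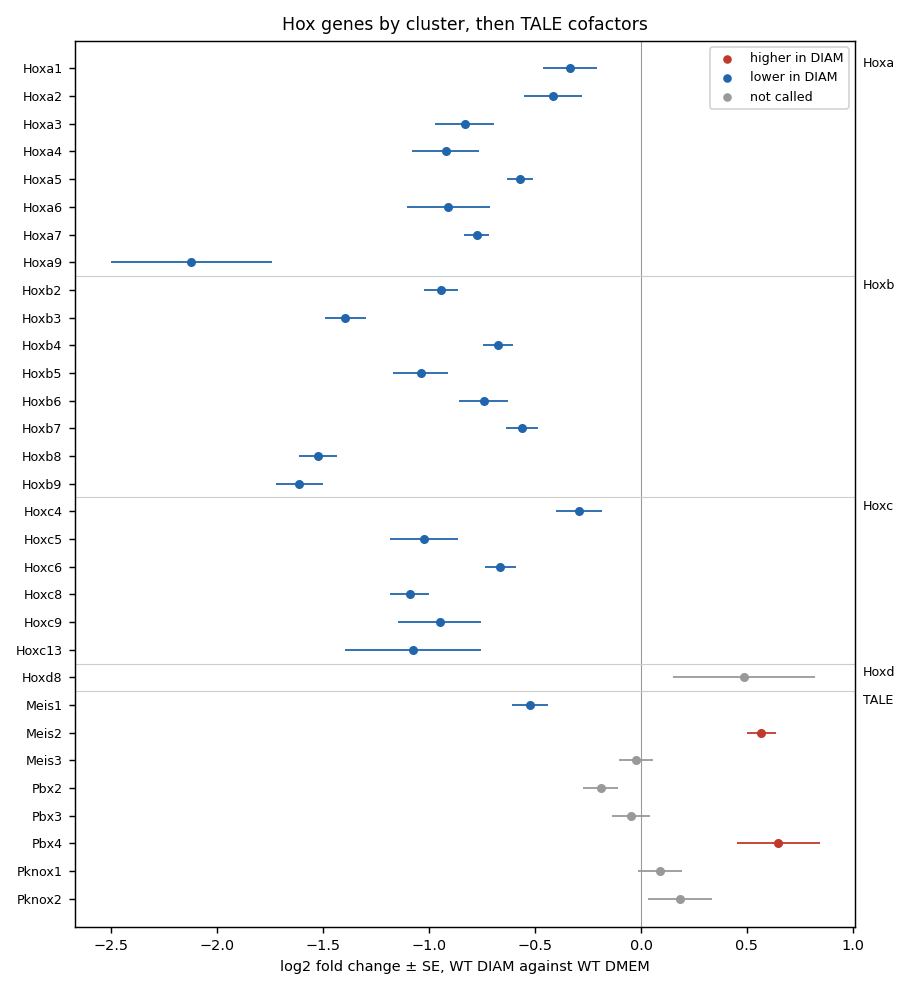
Log2 fold change with its standard error (horizontal axis) of each tested Hox gene and of TALE cofactors in WT cells, DIAM against DMEM, by cluster between the grey lines. The 22 genes of the Hoxa, Hoxb and Hoxc clusters all lie below 0 and all were called.

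Cartilage and bone genes fell in 14 of 24 cases and rose in 5. Tnfrsf11b, the decoy receptor osteoprotegerin, stood at 272, 219.6, 225 and 259 CPM in DMEM and 23.7, 19.8, 16.2 and 17.3 CPM in DIAM (log2 fold change -3.67 ± 0.22 SE, adjusted p = 2.70e-09, edgeR), and its ligand's gene Tnfsf11 fell from 8.94 ± 2.01 to 1.27 ± 0.740 CPM. The chondrogenic factors Sox5, Sox6 and Sox9 rose, from 6.61 to 23.8 CPM, 1.51 to 10.0 CPM and 6.99 to 24.1 CPM, while Acan, aggrecan, fell from 3.29 to 0.724 CPM. Mgp, the inhibitor of arterial calcification, was not called and stood at 3785, 3178, 3074 and 3559.5 CPM in DMEM and 4001, 4817, 3102 and 3294 CPM in DIAM.

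Most acute-phase and complement genes rose. Of 20 acute-phase genes, 16 rose and 1 fell, with a median log2 fold change of 1.95. Cp, the copper ferroxidase ceruloplasmin, stood at 56.8, 80.6, 75.4 and 112 CPM in DMEM and 576, 725, 659 and 743 CPM in DIAM (log2 fold change 3.06 ± 0.18 SE, adjusted p = 2.00e-09, edgeR). Itih2, which links to hyaluronan, rose from 10.6 ± 3.50 to 40.7 ± 2.60 CPM. Fgl2 fell from 74.8 ± 25 to 19.9 ± 8.72 CPM. Saa3 was not called and stood at 105, 63.8, 80.4 and 154 CPM in DMEM and 138, 271, 86.3 and 131 CPM in DIAM. Of 27 complement genes, 15 rose and 3 fell. C3, the central component, stood at 168, 173, 245 and 348 CPM in DMEM and 1575, 1792, 1865 and 2222 CPM in DIAM (log2 fold change 3.0 ± 0.34 SE, adjusted p = 3.18e-06, edgeR), and C2 at 41.6, 40.5, 48.1 and 49.6 CPM in DMEM and 309, 337, 326 and 319.8 CPM in DIAM. Each library in DIAM exceeded all in DMEM for Cp, C3 and C2. Masp1, a lectin-pathway protease, rose from 9.97 to 95 CPM, Cfb from 44 ± 4.60 to 188 ± 6.03 CPM and C6, of the lytic complex, from 0.288 to 15.7 CPM. Serping1, the C1 inhibitor, rose from 925 ± 83.1 to 2623 ± 72 CPM.

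Of 23 serpins, 13 rose and 9 fell. The clade A3 genes Serpina3c, Serpina3g and Serpina3i rose beside Serpina3n, from 1.91 to 92.9 CPM, 5.99 to 15.6 CPM and 0.627 to 4.55 CPM. These are near-identical copies and their separate levels are uncertain. The intracellular clade B inhibitors Serpinb1a, Serpinb9 and Serpinb9b fell, with log2 fold changes of -2.96, -1.93 and -1.53. Serpinb1a, an inhibitor of neutrophil proteases, stood at 190.0, 130.1, 144 and 140.2 CPM in DMEM and 21.6, 22.9, 18.8 and 14.6 CPM in DIAM.

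Cytokine genes moved both ways, 23 rose and 20 fell of 60. Il33, the alarmin, stood at 117, 63.7, 82.4 and 104 CPM in DMEM and 15.8, 30.3, 9.12 and 13.8 CPM in DIAM (log2 fold change -2.41 ± 0.41 SE, adjusted p = 1.58e-04, edgeR). Il4ra, the receptor for interleukins 4 and 13, fell from 375 ± 44.6 to 139.8 ± 23 CPM. The monocyte chemokines Ccl2 and Ccl7 fell, from 49.3 to 24.9 CPM and from 50.4 to 20.5 CPM, and Ccl6 and Ccl8 rose, from 15 to 60.0 CPM and from 6.84 to 25.3 CPM. Cxcl13, a B-cell attractant, stood at 0.277, 0.258, 0.676 and 0.544 CPM in DMEM and 12.9, 21.7, 16.5 and 13 CPM in DIAM. The interleukin 1 receptor Il1r1 rose from 97.5 ± 12.2 to 265 ± 12.7 CPM, and so did its decoy Il1r2, from 0.362 to 4.74 CPM. Leukocyte markers summed to 898 to 1920 CPM in DMEM and 1090 to 1910 CPM in DIAM, and their part was not tested.

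Many interferon-stimulated and class I genes rose. Of 32 interferon-stimulated genes, 18 rose and 2 fell, with a median of 0.52. Oas2, an antiviral oligoadenylate synthetase, stood at 0.971, 1.03, 0.951 and 1.80 CPM in DMEM and 6.23, 10.2, 5.10 and 6.26 CPM in DIAM and Gbp2, a guanylate-binding GTPase, at 20.3, 20.7, 21.7 and 24.7 CPM in DMEM and 34.4, 39.4, 40.9 and 38 CPM in DIAM. Both were higher in every DIAM library. Ifit3 fell from 66.5 ± 10.6 to 28.4 ± 7.13 CPM, and Isg15 and Ifit1 were not called, at 0.02 and 0.02. Of 17 genes of class I presentation, 13 rose and 3 fell. H2-D1, a classical class I heavy chain, rose from 186 ± 28.2 to 454 ± 26.9 CPM and B2m, its partner, from 635 ± 25.8 to 930.1 ± 56 CPM. Tap1, the peptide transporter, fell, at -0.36. Class I genes are near-identical copies, so the split between them is uncertain. The Gbp2 promoter is shown because 14 of the 25 interferon list genes with a window (56.0%) held the response element TTTCNNTTTC on either strand. The element was in 3.78% of tested genes with a window and 3.44% of all windows. Of the 14 genes 7 rose and 2 fell, and of all 25 with a window 13 rose and 2 fell.
Gbp2 (chr3:142620413-142620662, plus strand): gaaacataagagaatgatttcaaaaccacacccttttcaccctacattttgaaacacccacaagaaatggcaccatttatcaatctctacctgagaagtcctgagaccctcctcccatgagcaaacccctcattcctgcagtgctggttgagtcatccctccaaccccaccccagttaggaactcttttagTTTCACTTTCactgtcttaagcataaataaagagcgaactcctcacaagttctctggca
The element begins 59 bases before the start.

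Enzymes that oxidise or conjugate small molecules rose more often than they fell, 27 rose and 8 fell of 46. Fmo2, a flavin monooxygenase, stood at 23.3, 34.7, 28.6 and 37 CPM in DMEM and 1126, 1044, 1205 and 1165 CPM in DIAM (log2 fold change 5.20 ± 0.15 SE, adjusted p = 1.94e-13, edgeR), and Fmo1 at 6.96, 10.4, 9.60 and 5.31 CPM in DMEM and 111, 73.7, 137 and 145 CPM in DIAM. Aldh1a1 and Aldh1a2, retinaldehyde dehydrogenases that make retinoic acid, went opposite ways. Aldh1a1 stood at 124, 134, 125 and 139 CPM in DMEM and 832, 752, 888 and 856 CPM in DIAM. Aldh1a2 stood at 193, 167, 251 and 182 CPM in DMEM and 13.1, 17.3, 16.8 and 20.9 CPM in DIAM (log2 fold change -3.54 ± 0.24 SE, adjusted p = 8.67e-09, edgeR). No library of either medium reached the range of the other for these 4 genes. Cyp26b1, which degrades retinoic acid, rose from 127 ± 12.4 to 296 ± 84.4 CPM, and the receptors Rarb and Rarg fell, at -0.83 and -0.70. The cytochrome Cyp1b1 fell from 1228 ± 92.5 to 999 ± 20.9 CPM.

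Metal and redox genes included large rises in a few members. Mt2, a metallothionein, stood at 110.3, 85, 97.6 and 112 CPM in DMEM and 931, 1159, 784 and 829.5 CPM in DIAM (log2 fold change 3.19 ± 0.17 SE, adjusted p = 5.87e-10, edgeR), and Mt1 rose from 139.9 ± 8.35 to 696 ± 123 CPM. Prdx6, a peroxiredoxin that repairs oxidised phospholipids, stood at 126, 115, 114 and 106 CPM in DMEM and 606, 561, 570.4 and 574 CPM in DIAM, and Sod3, the extracellular superoxide dismutase, at 1190.5, 1173, 1198 and 1233 CPM in DMEM and 478, 419, 514 and 517 CPM in DIAM. The media did not overlap for Mt2, Prdx6 or Sod3. Gclc, the catalytic subunit of glutathione synthesis, rose from 26.4 ± 1.82 to 87.6 ± 14.1 CPM, and the NRF2 target Nqo1 was not called, at -0.05. Of 30 antioxidant genes, 14 rose and 4 fell, and of 20 metallothionein and zinc transporter genes, 7 rose and 7 fell. Of these lists 60.0% and 70.0% were called, against 55.1% of all genes tested. Fth1, ferritin heavy chain, rose from 2187 ± 187 to 5198 ± 244 CPM, and Slc40a1, the iron exporter, fell from 6.21 ± 0.951 to 1.88 ± 0.473 CPM.

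The oxygen-sensing factors changed in opposite directions. Hif1a stood at 370.2, 356, 426 and 385 CPM in DMEM and 146, 151, 152 and 136 CPM in DIAM (log2 fold change -1.39 ± 0.06 SE, adjusted p = 2.96e-11, edgeR). Epas1, which encodes HIF2 alpha, stood at 114, 129.9, 138 and 131 CPM in DMEM and 409.8, 339.9, 444 and 391 CPM in DIAM (log2 fold change 1.63 ± 0.12 SE, adjusted p = 1.56e-08, edgeR). Hif3a, a dominant-negative relative and a glucocorticoid response gene, stood at 0.162, 0.129, 0.169 and 0.148 CPM in DMEM and 24.2, 22.1, 26.8 and 28.8 CPM in DIAM. The media did not overlap for any of the 3. Their targets were mixed: Adm and Bnip3 rose, at 1.34 and 1.0, and Vegfa and Ndufa4l2 fell, at -1.10 and -2.29. Of the 26 genes, 12 rose and 6 fell.

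Immediate early factors rose in 15 of 30 cases and fell in 7. Fosl1, an AP-1 subunit, stood at 4.09, 3.51, 4.59 and 4.18 CPM in DMEM and 20.3, 15.8, 20.1 and 20.1 CPM in DIAM, Fos rose from 11.3 ± 1.94 to 42.3 ± 9.06 CPM and Egr2 from 2.69 ± 1.05 to 17.9 ± 2.69 CPM. Spry1, a feedback inhibitor of receptor kinases, stood at 82.9, 91.2, 97.4 and 74.8 CPM in DMEM and 32.8, 28.2, 26.3 and 25.9 CPM in DIAM (log2 fold change -1.61 ± 0.10 SE, adjusted p = 1.68e-09, edgeR). Its DIAM libraries were all below those in DMEM. Stress response genes fell in 16 of 32 cases and rose in 8. Trib3, a pseudokinase induced by ATF4, and Ddit3, the factor CHOP, fell, at -1.33 and -0.81, and Hspb1, a small heat shock protein, rose from 132 ± 5.18 to 465 ± 40.4 CPM. Of 37 lysosome and autophagy genes, 13 rose and 8 fell, 56.8% called against 55.1% of all genes tested. Ctss, cathepsin S, an elastin-degrading protease, rose from 55.4 ± 15.7 to 125 ± 34.7 CPM.

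In arginine, proline and polyamine metabolism, 10 rose and 12 fell of 26. Prodh, which begins the breakdown of proline, stood at 0.301, 0.361, 0.338 and 0.346 CPM in DMEM and 16.5, 11, 18.2 and 18.3 CPM in DIAM, and the proline-making enzymes Aldh18a1 and Pycr1 fell, at -0.68 and -0.83. Azin2, an antizyme inhibitor, fell from 56.9 ± 3.16 to 22.7 ± 5.0 CPM. Among amino acid transporters, Slc1a5, which takes up glutamine, stood at 99.5, 126, 127 and 126 CPM in DMEM and 423, 316, 523 and 514 CPM in DIAM (log2 fold change 1.89 ± 0.14 SE, adjusted p = 1.05e-08, edgeR), and Slc6a6, the taurine transporter, at 789, 981, 925 and 919.9 CPM in DMEM and 273, 221, 293 and 307 CPM in DIAM (log2 fold change -1.72 ± 0.16 SE, adjusted p = 1.82e-07, edgeR). Both were apart between the media in all 8 libraries. Of the 29 transporters, 16 rose and 10 fell.

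Guidance molecules, first known from growing axons, changed in equal numbers each way (23 rose and 23 fell of 62). Sema3e, a ligand of plexin D1, stood at 3.14, 2.09, 4.80 and 4.82 CPM in DMEM and 101, 73, 115 and 99.7 CPM in DIAM (log2 fold change 4.70 ± 0.25 SE, adjusted p = 6.04e-10, edgeR). Slit2, a ligand of Robo receptors, stood at 295, 350.1, 385 and 325 CPM in DMEM and 146, 100.4, 140.1 and 144 CPM in DIAM (log2 fold change -1.35 ± 0.10 SE, adjusted p = 2.04e-08, edgeR). All 4 values in DIAM lay outside the DMEM range for both. Ephb3 fell from 91.8 ± 6.46 to 29.8 ± 4.81 CPM and Epha5 rose from 0.422 to 13.3 CPM. Among 20 imprinted genes, 3 rose and 7 fell, 50.0% called against 55.1% of all genes tested. Meg3 and Rian, noncoding RNAs of the Dlk1 region, fell from 88.8 ± 23.2 to 30.7 ± 4.16 CPM and from 157 ± 13.8 to 93.9 ± 10.8 CPM, and Dlk1, an inhibitor of fat cell formation, rose from 1.53 to 7.20 CPM.

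Markers of other cells differed between the media and, in part, between DIAM libraries. Schwann cell markers rose in 9 of 10. Ngfr, a neurotrophin receptor, stood at 40.3, 7.56, 28.4 and 18.6 CPM in DMEM and 249, 390.0, 162 and 154 CPM in DIAM, and S100b fell. Fibroblast and progenitor markers rose in 9 and fell in 4 of 14, and summed to 4320 to 4560 CPM in DMEM and 13300 to 16800 CPM in DIAM, with Gsn the main part of that sum. Ly6a, the progenitor antigen Sca-1, stood at 145, 146, 137 and 127 CPM in DMEM and 977, 1060.0, 874 and 821 CPM in DIAM, and Dpt, dermatopontin, at 37.1, 46.5, 34.1 and 53.6 CPM in DMEM and 170.3, 338, 142 and 242 CPM in DIAM, while Thy1 fell from 852 ± 34.2 to 448 ± 56.4 CPM. Mesothelial markers rose in 3 and fell in 0 of 11, 27.3% called against 55.1% of all genes tested. In the fit of the 8 WT libraries alone 5 rose, and with a replicate block 8 did. They summed to 102 to 200 CPM in DMEM, 145 CPM in DIAM library 2 and 260 to 370 CPM in the other DIAM libraries. Msln, mesothelin, stood at 5.69, 5.96, 7.16 and 9.56 CPM in DMEM and 67.5, 40.8, 73.9 and 68.5 CPM in DIAM. Endothelial markers rose in 5 and fell in 1 of 14, 42.9% called, and 3 rose without DIAM library 3. They summed to 256 to 357 CPM in DMEM and 317 to 427 CPM in DIAM. Of 11 leukocyte markers 3 rose and 1 fell, 36.4% called, with a median of -0.2. Mrc1, the macrophage mannose receptor, stood at 46, 45.3, 28.1 and 68.2 CPM in DMEM and 259.6, 285, 159 and 305 CPM in DIAM, while Csf1r, another macrophage gene, was not called, at -0.21. The part of these cells in the medium response was not tested.

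**Figure D5:**
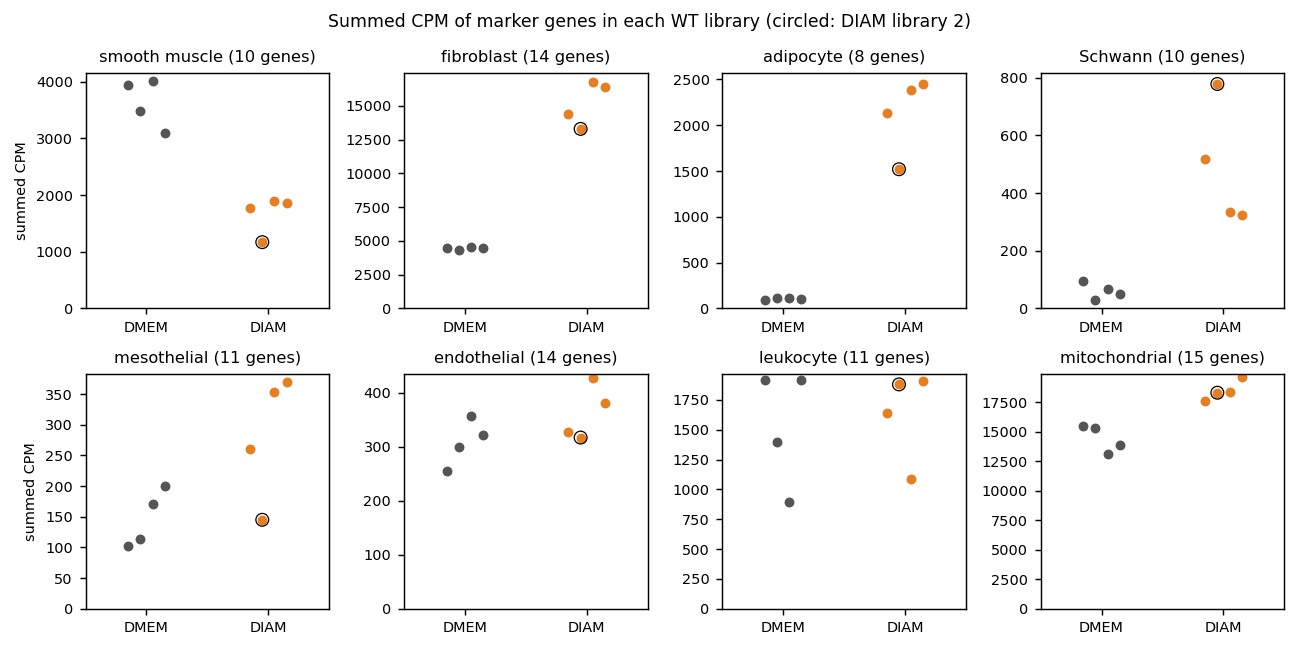
Summed CPM (vertical axis, from 0) of the tested marker genes of 8 kinds in each WT library, with DIAM library 2 circled. Adipocyte, fibroblast and Schwann marker sums are higher in all DIAM libraries, the smooth muscle sum is lower in all, and library 2 holds the lowest adipocyte, mesothelial and smooth muscle sums and the highest Schwann sum of its group.

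Some genes differed widely between libraries of 1 medium. Muc16, a mucin of mesothelium, stood at 2.29, 2.22, 3.09 and 7.46 CPM in DMEM and 9.12, 1.77, 14.6 and 14.8 CPM in DIAM, and Rps27, a ribosomal protein gene with processed copies, at 35.1, 13.5, 33.4 and 28.6 CPM in DMEM and 1.69, 23.7, 1.38 and 9.37 CPM in DIAM. DIAM library 2 was the lowest of its group for the first and the highest for the other, and without it Rps27 was called at -2.74 (edgeR adjusted p = 0.00838). With library 2 kept, Rps27 was called by limma at a pseudocount of 1 (adjusted p = 0.0176) and of 0.1 (adjusted p = 0.0216) and with quantile normalization (limma adjusted p = 0.0137). Nnt, a mitochondrial transhydrogenase, stood at 14.1, 17.2, 14.4 and 14.1 CPM in DMEM and 10.5, 8.59, 0 and 6.91 CPM in DIAM, with 1 DIAM library at 0. Over 11238 genes at 5 CPM or more the median SD of log2(CPM + 1) was 0.106 in DMEM and 0.107 in DIAM. Without library 2 of DIAM, 7805 genes were called, 3926 up and 3879 down. At the other end, 2146 genes (15.1%) had a 95% interval of the log2 fold change that lay within 0.25 of 0 in both directions.

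The WT response was set beside that of the knockout cells only to test where it differed. The interaction of genotype and medium was called for 0 of 14217 genes, 0.0%, by edgeR, with 2255 at an unadjusted p under 0.05, and for 0 by limma, with 2301. DESeq2 called 225 on the same counts, and 231 were called in the authors' deposited table. Whether any gene was called here depended on the tool.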

How the data were processed

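RNA from WT cells was sequenced as unstranded TruSeq libraries after removal of ribosomal RNA, 4 per medium, per the labels' protocols, which also speak of triplicates. The authors deposited 1 table of 20581 genes made with Salmon 1.9.0 and DESeq2 1.46.0 on GRCm39, per the submitters' processing notes. The labels call its values TPM, but the deposited columns are not whole, sum to between 37354871 and 47626242 and were used as estimated counts, rounded to whole numbers. The authors' baseMean signal, log2 fold changes and p-values in that table, named per the file headers, served only as an alternative, named in the text as the authors' deposited table. The 14217 genes at 1 CPM or more in at least 4 of the 16 libraries were fitted in 1 model of the 4 groups with edgeR 4.0.16 (R 4.3.3, trimmed-mean scaling, robust quasi-likelihood test, two-sided, Benjamini-Hochberg adjustment over all genes tested), and a gene was called at an adjusted p under 0.05. The script was tested on simulated counts. All 16 libraries carry the same batch label. Alternatives were other scalings, filters and sample sets, limma 3.58.1, DESeq2 1.42.0, a replicate block, a minimum fold, the authors' values and leaving out each library. Start sites came from RefSeq's GRCm38.p6 promoter table, matched by symbol, and no coordinate was moved between builds. Intervals and levels cover counting and library spread only, and a median log2 SD near 0.1 within a medium limits what can be seen.

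Genes were named by a rule: the 12 largest rises and falls, the 6 largest gains and losses in CPM, from each of 70 gene lists up to 4 members of smallest p and up to 3 of largest change each way, members that went against their list, the most variable genes of each medium, and the smooth muscle and sex-linked lists. The text leaves some of these out. Of the 353 genes named, 221 came from the rule and the other 132 were picked once their values had been seen. The gene lists and the comparison were chosen with earlier results of these data known.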

Additional observations from a re-analysis of the deposited data

Results flagged for a closer look

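34 of 706 sets of 4 libraries, 1 gene in 1 medium, held a library whose gap to the nearest of the others took more of the range of log2(CPM + 1) than Dixon's 95% critical value, or 4.82%. All 706 sets were counted, but only those with a library at 5 CPM or more could be marked. Chance alone marks about 1 in 20 sets of 4 values, and the 4.82% cannot be set beside that rate. DIAM library 2 stood apart most often, below the other 3 for 13 genes and above them for 5. It was low for Acta2 (0.948), Adipoq (0.847), Ccn2 (0.849), Cfd (0.898), Fbln5 (0.839), Fn1 (0.85), Fosl1 (0.955), Gclc (0.869), Irs1 (0.888), Msln (0.848), Ogdh (0.831), Slit2 (0.893) and Tgfb3 (0.92). It was high for Crabp1 (0.838), Meg3 (0.905), Rarg (0.836), Serpina3g (0.942) and Trib3 (0.905). In DIAM, library 1 was high for Col12a1 (0.859) and Eln (0.917), and library 3 was low for Nnt (0.845). In DMEM, library 4 was low for Ccnd2 (0.868), Pycr1 (0.956), Rspo3 (0.845) and S100b (0.839) and high for Cfb (0.912), Ifit1 (0.854) and Insig2 (0.884). DMEM library 1 was low for Foxo1 (0.862), Slc1a5 (0.965) and Smoc1 (0.882) and high for Ndufa4l2 (0.896). DMEM library 2 was high for Nnt (0.893), and DMEM library 3 for Emilin2 (0.866). The number after each gene is the gap as a share of the range. For the smooth muscle actin Acta2 in DIAM, library 2 held 521 CPM and the others 843 to 866 CPM, and for Serpina3g it held 24.3 CPM and at most 13 CPM was held by the others. Of the 34 cases listed, those with a called medium response kept it without DIAM library 2 and without each other library in turn.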

How the results depend on the processing

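The 7839 genes called, 3929 higher and 3910 lower in DIAM, came to 7827 (3946 and 3881) with median-ratio scaling, 7878 (3931 and 3947) with limma at a pseudocount of 1, 7881 at 0.1, 8024 (4049 and 3975) with DESeq2, 8340 with no filter, 6592 with a filter at 5 CPM, 7445 in a fit of the 8 WT libraries alone and 7383 (3708 and 3675) in the authors' deposited table. Quantile normalization moved the median of all genes to -0.07 and gave 3287 higher and 4886 lower. Requiring a change of more than 1 on the log2 scale left 1295 genes, 877 higher and 418 lower. Leaving out each library in turn gave 7245 to 7805 genes, 3667 to 3926 higher and 3574 to 3879 lower. The genotype by medium interaction stayed at 0 in each of those fits and was 225 with DESeq2 and 231 in the authors' deposited table. With a replicate block the counts were 8008, 4032, 3976 and 0. The labels number the replicates without saying what a number shares, so the numbers were not taken as pairs. Deviations from the group means correlated at 0.171, -0.0945, 0.267 and 0.253 between same-numbered DMEM and DIAM libraries. The same number was the best match for DMEM libraries 3 and 4 and not for 1 and 2. These values do not settle if the libraries were paired. No named gene reversed. A minimum fold aside, 1 named gene, Srf, lost its call under any alternative, and Col3a1, Rps27, Rspo1, Nnt and Muc16 gained one: Nnt with limma at a pseudocount of 1 (-1.55) and with quantile normalization (-1.62), Muc16 and Rspo1 with the block (1.31 and 0.69), and Col3a1, Rps27 and Rspo1 also as given beside their values. At 5 CPM, where fewer genes were tested, the rises fell from 13 to 8 for serpins and from 8 to 5 for Wnt genes, and 9 of 14 falls of bone and cartilage genes were left. With quantile normalization ribosomal rises went from 15 to 6, respiratory falls from 7 to 13, mitochondrial ribosomal falls from 11 to 21, nuclear receptor falls from 3 to 6 and antioxidant falls from 4 to 7, the last also with the block. In the fit of the 8 WT libraries alone ribosomal rises went to 8. The cause was not tested. Genes under 1 CPM were outside the fit, and folds of genes at a few counts in 1 medium are imprecise.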

Other observations

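Other groups showed smaller or mixed changes. Of all genes tested 55.1% were called. The share was 56.0% for heme and iron, 36.4% for mitochondrial ribosomal, 33.3% for histone and 58.8% for retinoid genes. Of 25 heme and iron genes, 11 rose and 3 fell: Alas1, the housekeeping enzyme that starts heme synthesis, stood at 41.2, 38.5, 40.6 and 42.4 CPM in DMEM and 95.8, 77.9, 102 and 105 CPM in DIAM, and Hmox1, which breaks heme down, rose from 180.4 ± 10.2 to 353 ± 43.3 CPM. Of 77 mitochondrial ribosomal protein genes, 17 rose and 11 fell, and 7 fell without DMEM library 1 or without DIAM library 4, against 21 with quantile normalization. Of 21 histone genes, 4 rose and 3 fell. Of 17 retinoid genes, 4 rose and 6 fell, with Crabp1, which carries retinoic acid in the cytosol, up by 3.50 on the log2 scale. Cxcl14 and Cxcl5, chemokines, fell from 15.4 to 2.22 CPM and from 4.43 to 0.806 CPM.

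The WT genes named had their own value in the knockout cells, whose DMEM and DIAM libraries are separate from the WT ones. Gsn had a log2 fold change of 3.84 in WT cells and 4.35 in knockout cells, Serpina3n 5.79 and 5.05, Eln -2.86 and -3.34, and Rspo3 -3.44 and -3.20. In knockout cells 8623 genes were called.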
